A study of Mus musculus with 2 samples.

Results

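The homeobox genes of the mouse Hox clusters were compared between wild-type and mDom-/- embryos, each read as 1 pool. Members were the listed Hox genes of clusters A, B, C and D, found by the gene symbol of their probe, 38 genes in all. Of these, 34 had a probe of their own, 35 probes together, out of 36227 probes on the array. For 4 genes, Hoxc11, Hoxc12, Hoxd4 and Hoxd12, no probe was listed and no value is given. Every listed gene with a probe is described below, whether or not its signal was above the floor.

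Total RNA came from the embryo proper at E8.5 (embryonic day 8.5). The wild-type pool held 42 embryos and the pool labelled mDom-/- held 45 litter-matched embryos homozygous for the mutation, and each pool was hybridised to 1 array. mDom (mDomino, p400) is now named Ep400 and encodes the ATPase of the TIP60/p400 chromatin-remodelling complex. The strain, the kind of allele and whether the wild-type pool held heterozygous embryos were not stated in the labels. With 1 array per group nothing could be tested, and pooling hid how embryos or litters differed.

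Hox genes encode homeodomain transcription factors that set position along the body axis. Genes with the same number in different clusters are paralogues, copies that arose when an ancestral cluster was duplicated, and they share much of their DNA-binding domain. Low-numbered genes are switched on first and act in the hindbrain and neck, and high-numbered genes follow in turn as the trunk and tail grow out. Polycomb and Trithorax group proteins are known to hold the clusters off or on.

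Levels are multiples of the array median and can be compared between the pools for 1 gene, not between genes, because each gene was read by a different probe. The common floor was 0.541 times the array median, the higher of the 40th percentiles of both arrays. A gene was compared if its probe passed the floor on 1 array or both. A log2 ratio is that of the mDom-/- level over the wild-type level, so that values below 0 are lower in the mDom-/- pool. Repeated measurement was limited to genes read by a pair of probes. From 1301 such genes, the SD of a log2 ratio was 0.25. It covers how probes of 1 gene differ on the same arrays. Error shared by a whole array and the spread between pools are not in it. No compared Hox gene had more than 1 compared probe, so no Hox ratio could be checked by another probe.

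Hox signal was mostly a little lower for mDom-/- embryos, and the genes furthest below were high-numbered genes of cluster A and Hoxc9. Of the 34 genes with a probe, 27 were compared, 26 of them above the floor on both arrays. Of the 27, 22 had a log2 ratio below 0, where 50.5% of all 13136 compared genes did. The median Hox log2 ratio was -0.22, and that of all compared genes was -0.0036. At least 2-fold lower were 2 Hox genes, Hoxa10 and Hoxa13, against 0.929% of all compared genes, and 4 were at least 1.5-fold lower, against 4.35%. Hoxa13, in both counts, was compared through the wild-type array alone and could only come out lower. Of the 26 genes above the floor on both arrays 1, Hoxa10, was at least 2-fold lower, against 0.595% of all such genes. Hoxa13 was also past 3-fold, as were 0.175% of all compared genes, but its size is set by the floor. Nothing is read from that count. No Hox gene was at least 1.5-fold higher, against 4.08% of all compared genes, or at least 2-fold higher, against 0.845%. In bulk RNA, fewer cells of a type and less RNA per cell cannot be told apart.

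**Figure D1:**
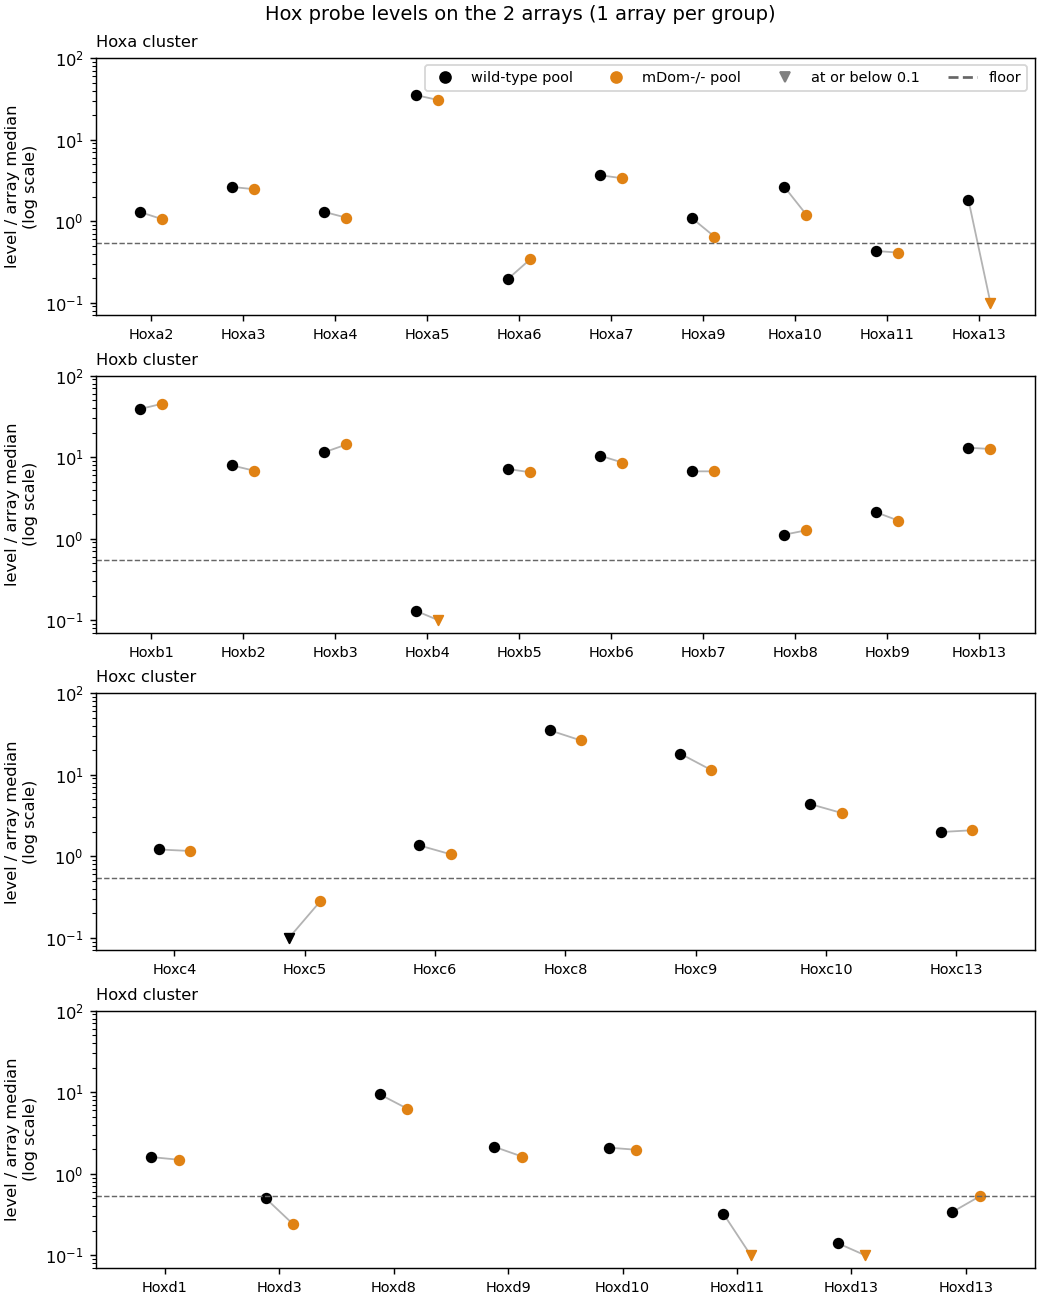
Level of each Hox probe on both arrays, in units of the array median on a log axis, by cluster and in order of paralogue number, with black points for the wild-type pool, orange points for the mDom-/- pool and the floor of 0.541 as a dashed line. Points of 1 gene can be compared with each other, and the drops of Hoxa9, Hoxa10, Hoxa13 and Hoxc9 are the widest among the genes with a point above the floor.

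The genes furthest below 0 were those of the high-numbered end of cluster A. Hoxa10, which holds back rib formation in the lumbar region, read 2.64 for wild-type embryos and 1.20 for mDom-/- embryos, 2.20-fold lower. When all compared genes were split into 4 classes of 3284 by mean brightness, only 0.457% of the genes in its class had a ratio as low. Hoxa13, a gene of the hindgut, the umbilical arteries and later the distal limb, read 1.84 for wild-type embryos and -0.054 in the mDom-/- pool. The latter is below 0 and under the floor, so the ratio is a limit, at least 3.41-fold lower. Hoxa9, which acts in the trunk axis and in blood stem cells, read 1.08 and 0.647, 1.67-fold lower, and 6.30% of the genes in the dimmest class were as low. All of these signals lay within a few multiples of the floor. When the floor was raised to the 60th percentile, the log2 ratios of Hoxa10 and Hoxa13 shrank to -0.58 and -0.063 and Hoxa9 was no longer compared. The remaining high-numbered gene of the cluster, Hoxa11, read 0.430 and 0.412, both under the floor.

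The promoters of these 3 genes are shown because they are neighbours at 1 end of a cluster and hold the lowest ratios, and that of Hoxb1 because it is a gene of the opposite, early-activated kind with a ratio above 0. Each window runs from 250 bases before to 50 bases after a transcription start of RefSeq (GRCm38.p6), and Hoxa10 has 2 annotated starts.
Hoxa9, chr6:52227321-52227620, - strand: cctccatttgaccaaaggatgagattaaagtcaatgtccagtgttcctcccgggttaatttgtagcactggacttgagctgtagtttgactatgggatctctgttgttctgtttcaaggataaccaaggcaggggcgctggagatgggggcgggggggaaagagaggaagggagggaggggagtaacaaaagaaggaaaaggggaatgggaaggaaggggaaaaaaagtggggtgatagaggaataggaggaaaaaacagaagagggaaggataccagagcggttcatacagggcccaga
Hoxa10, chr6:52234890-52235189, - strand: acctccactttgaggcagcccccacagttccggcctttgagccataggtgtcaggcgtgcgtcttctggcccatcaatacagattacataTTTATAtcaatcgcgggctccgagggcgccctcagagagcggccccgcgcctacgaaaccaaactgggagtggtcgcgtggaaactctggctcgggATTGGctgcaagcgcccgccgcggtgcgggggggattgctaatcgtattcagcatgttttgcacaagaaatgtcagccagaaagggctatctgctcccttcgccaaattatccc
Hoxa10, chr6:52240805-52241104, - strand: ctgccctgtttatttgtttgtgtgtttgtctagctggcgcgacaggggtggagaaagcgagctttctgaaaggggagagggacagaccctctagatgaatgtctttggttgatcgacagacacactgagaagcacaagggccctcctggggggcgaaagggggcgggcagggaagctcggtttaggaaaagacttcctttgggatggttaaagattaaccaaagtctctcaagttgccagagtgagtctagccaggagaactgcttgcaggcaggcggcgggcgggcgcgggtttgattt
Hoxa13, chr6:52260831-52261130, - strand: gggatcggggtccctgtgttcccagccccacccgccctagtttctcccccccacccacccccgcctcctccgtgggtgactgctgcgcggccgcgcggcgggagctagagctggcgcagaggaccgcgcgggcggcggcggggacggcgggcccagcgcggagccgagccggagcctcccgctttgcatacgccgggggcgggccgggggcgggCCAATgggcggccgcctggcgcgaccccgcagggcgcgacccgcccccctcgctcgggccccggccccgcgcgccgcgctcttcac
Hoxb1, chr11:96365508-96365807, + strand: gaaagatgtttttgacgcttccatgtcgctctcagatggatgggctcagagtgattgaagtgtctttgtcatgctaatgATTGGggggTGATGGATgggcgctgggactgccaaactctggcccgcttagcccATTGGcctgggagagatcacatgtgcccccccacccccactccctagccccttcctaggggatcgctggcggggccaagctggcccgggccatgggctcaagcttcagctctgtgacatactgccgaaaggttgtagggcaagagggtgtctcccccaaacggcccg
Capitals mark matches, on either strand, to 4 short motifs. TTTATG is a site of the CDX type, and 11.9% of all 32851 promoter windows in the table held it. A PBX-HOX type of site was searched as TGATNNAT and was found in 8.85% of all windows. The TATA box, searched as TATAAA, was found in 13.6%. The CCAAT box, searched by those letters, was found in 37.4%, and matches to different motifs may share bases. The CDX type was not matched in the 5 windows shown, the PBX-HOX type only in that of Hoxb1 and the TATA box only in the first of Hoxa10. The windows differed most in CG dinucleotides: 45 for Hoxa13, 21 and 12 for the Hoxa10 starts, 10 for Hoxb1 and 4 for Hoxa9, against a median of 7 over all windows. The 24 windows found for 22 of the listed Hox genes had a median of 14.5. The CG counts of the 3 A-cluster genes with the lowest ratios thus spanned from below to well above that median.

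The other A-cluster genes lay below 0 by small amounts. Hoxa2, which patterns the hindbrain and the second pharyngeal arch, read 1.29 and 1.06 (log2 ratio -0.29). Hoxa4 read 1.30 and 1.10 (-0.24). Hoxa5, a gene of the neck and the lung, read 35.1 and 30.5 (-0.20). Each of these was within or close to the probe SD of 0.25. Hoxa3, needed for thymus and parathyroid glands, read 2.63 and 2.46, and Hoxa7 3.65 and 3.36, log2 ratios of -0.09 and -0.12. Hoxa6 read 0.197 and 0.342, under the floor on both arrays. All 8 compared genes of cluster A were thus below 0, where 50.5% of all compared genes were, though Hoxa13 could only come out so. The median log2 ratio of the cluster was -0.26, and -0.24 over the 7 genes above the floor on both arrays. With the 60th percentile floor it was -0.12, where that of cluster B was -0.09.

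Cluster B stood closest to 0, with 5 of 9 compared genes below 0, none 1.5-fold apart and a median of -0.05. Its share below 0 was near the 50.5% of all compared genes. Its low-numbered genes held the highest Hox ratios. Hoxb1, the marker of the fourth hindbrain segment, read 39.0 for wild-type embryos and 45.3 in the mDom-/- pool (log2 ratio 0.22). Hoxb3 read 11.5 and 14.3 (0.32), and 91.4% of the genes in its brightness class had a ratio as low or lower. Hoxb2, a hindbrain gene that lies between them, read 7.90 and 6.81 (-0.22). The middle genes were near 0 and went both ways: Hoxb5 read 7.15 and 6.52 (-0.13), Hoxb6 10.4 and 8.60 (-0.27), Hoxb7 6.70 in both pools, and Hoxb8 1.12 and 1.27 (0.18). Hoxb9, the lowest of the cluster, read 2.11 and 1.66 (-0.34). Hoxb13, known from the tail and the prostate, read 13.1 and 12.6 (-0.05). Hoxb4 was under the floor on both arrays, at 0.130 and -0.014.

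In cluster C 5 of 6 compared genes were below 0, against 50.5% of all compared genes, with a median of -0.36. Hoxc9, which gives the thoracic spinal cord its identity, read 18.2 for wild-type embryos and 11.4 for mDom-/- embryos, 1.60-fold lower. Both signals were far above the floor, and 1.25% of the genes in its brightness class were as low. Its neighbour Hoxc8, a gene of the thoracic skeleton and of forelimb-level motor neurons, read 35.0 and 26.3 (-0.41), and 2.47% of the brightest class were as low. Hoxc10, which acts in hindlimb-level motor neurons, read 4.36 and 3.39 (-0.36), and Hoxc6 1.36 and 1.06 (-0.36). The ends of the cluster were near 0: Hoxc4 read 1.21 and 1.16 (-0.06), and Hoxc13, a hair and nail gene, 1.98 and 2.08 (0.07). Hoxc5 was under the floor, at 0.081 and 0.281.

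In cluster D all 4 compared genes were below 0, against 50.5% of all compared genes, with a median of -0.25. Hoxd8 read 9.39 for wild-type embryos and 6.27 for mDom-/- embryos, a log2 ratio of -0.58, just inside 1.5-fold, and 2.13% of the genes in its brightness class were as low. Hoxd9 read 2.14 and 1.63 (-0.39). Hoxd1 and Hoxd10 were near 0, at 1.60 and 1.49 (-0.11) and at 2.09 and 1.97 (-0.08). Hoxd3 read 0.502 and 0.242 and Hoxd11 0.325 and 0.060, both under the floor. The 2 probes of Hoxd13, which shapes the digits, were also under it, at 0.141 and 0.0010 and at 0.339 and 0.529. Of all Hox signals, those nearest the floor were 0.529 and 0.502 under it (Hoxd13 and Hoxd3) and 0.647 above it (Hoxa9). Cluster D was described from fewer genes than the others, and from no paralogue above 10.

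**Figure D2:**
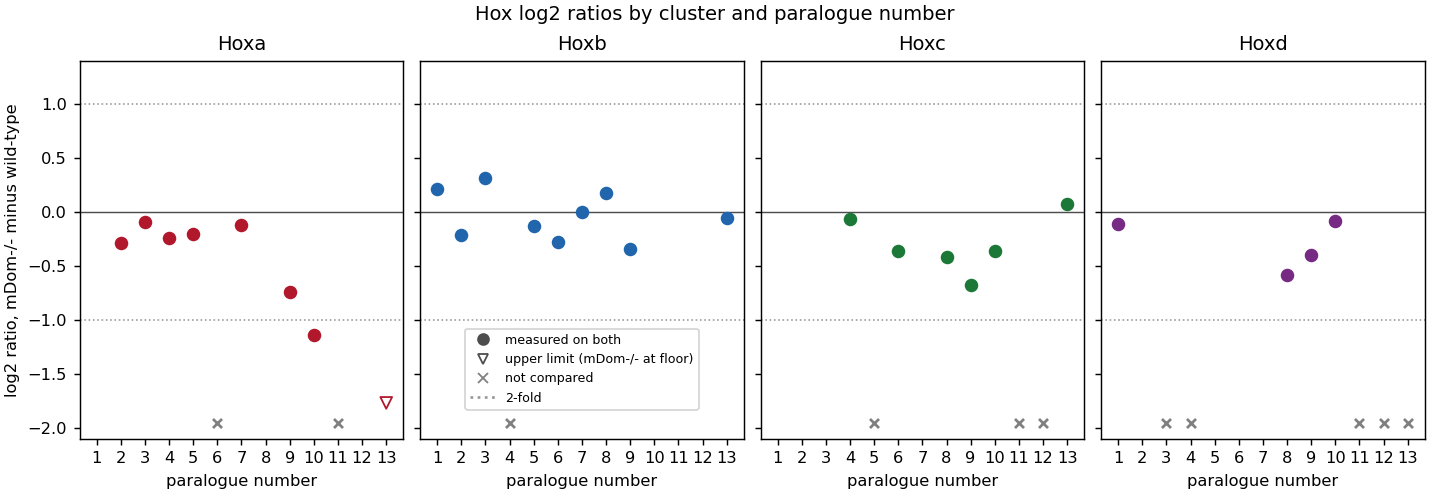
Log2 ratio of mDom-/- over wild-type against paralogue number in clusters A, B, C and D; filled points were above the floor on both arrays, the open triangle (Hoxa13) is a limit, crosses at the bottom mark genes not compared, and dotted lines mark 2-fold. In cluster A the points drop to -0.74, -1.14 and -1.77 at paralogues 9, 10 and 13, while in cluster B they stay between -0.34 and 0.32.

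By position along the clusters, the median log2 ratio was -0.10 for paralogues 1 to 4 (6 of 8 compared genes below 0), -0.20 for paralogues 5 to 8 (7 of 9) and -0.38 for paralogues 9 to 13 (9 of 10). The share below 0 over all compared genes was 50.5%. All 4 genes at least 1.5-fold lower, a size reached by 4.35% of all compared genes, were in the last class. Among them Hoxa13 was compared through the wild-type array alone and could only come out lower. Over the 9 genes of that class above the floor on both arrays the median was -0.36. The trend did not run evenly to the end. Paralogue 9 had the lowest median of the paralogue numbers, -0.53, with all 4 members below 0: Hoxa9 -0.74, Hoxc9 -0.67, Hoxd9 -0.39 and Hoxb9 -0.34. The 3 compared genes of paralogue 10 ranged from -1.14 (Hoxa10) to -0.08 (Hoxd10), and those of paralogue 13 from the limit of Hoxa13 to 0.07 (Hoxc13). The range among copies of the same number was between 0.07 and 0.41 at 8 of the 11 numbers with more than 1 compared copy. It was 0.76 at paralogue 8, 1.05 at paralogue 10 and, through the limit of Hoxa13, 1.84 at paralogue 13.

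As a description across genes, which are not independent replicates and share both arrays, Spearman's rho between paralogue number and log2 ratio was -0.37 over 27 genes and -0.31 over the 26 measured on both arrays. It was -0.56 over the 24 genes of paralogues 1 to 10. Within clusters rho was -0.67 in A (8 genes), -0.33 in B (9), 0.03 in C (6) and 0.40 in D (4). Over paralogues 1 to 10 it was -0.50 in A (7 genes), -0.45 in B (8) and -0.70 in C (5), the last without Hoxc13 alone, and cluster D had no compared gene above 10. Without cluster A it was -0.25 over 19 genes, and with the 25th or 60th percentile floor or no floor it lay between -0.18 and -0.14. The pooled value was thus smaller in size without cluster A and with any of the other floors. Ratio and mean brightness had a rho of 0.23 over the same 27 genes.

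Among paralogues, the B copy had the highest ratio in 8 of the 9 paralogue numbers at which cluster B and another cluster were compared, the exception being paralogue 13. The widest gap between the B copy and the lowest copy was 1.72 at paralogue 13, where Hoxa13 is a limit, and the narrowest 0.07 at paralogues 2 and 5. This gap was over the probe SD of 0.25 at 5 of the 9 numbers, and at 4 over genes measured on both arrays. In all 6 pairs with both an A and a B copy the A copy was lower. Among them Hoxa13 was compared through the wild-type array alone and could only come out lower. Over genes measured on both arrays the A copy was lower in 5 of 5 pairs. With the 25th percentile floor or no floor the B copy was highest in 6 of 9, with the 60th in 4 of 5, and with no floor the A copy was lower in 5 of 6 pairs. Whether the clusters differ could not be tested with these arrays.

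Brightness was set beside these values, since dim probes scatter more. All compared genes were split into the same 4 classes of mean brightness. Among genes above the floor on both arrays, log2 ratios had a robust SD of 0.38 in the dimmest class (2082 genes) and 0.19 in the brightest (3284). Hox genes below 0 were 6 of 7 in the dimmest class, 8 of 9 and 6 of 8 in the middle classes, and 2 of 3 in the brightest. Hoxa13, in the dimmest class by a mean that includes the floor, could only come out below 0. Over all genes of those classes 49.5%, 52.5%, 55.2% and 44.9% were below 0. The median Hox ratio was -0.29, -0.12, -0.17 and -0.20 from the dimmest to the brightest class, while that of all genes stayed between -0.028 and 0.026. The Hox median was thus below that of genes of like brightness in each class.

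The genes just outside the clusters were described in the same way, taking the 5 nearest compared named protein-coding genes on each side by RefSeq gene order. Of these 40 genes, 13 were below 0 (32.5%), where 50.5% of all compared genes were, and their median log2 ratio was 0.09. At the high-numbered side of cluster A, next to Hoxa13, the homeobox gene Evx1 read 1.14 and 1.10 (-0.04) and Hibadh, a valine breakdown enzyme gene, 37.6 and 38.6 (0.04). On the low-numbered side Skap2 and Snx10 had 0.11 and 0.08. Beside cluster B, Calcoco2 and Atp5g1 had 0.52 and 0.18 on the high-numbered side, and Snx11 and Cbx1, a heterochromatin protein gene, -0.53 and -0.28 on the other. Beside cluster C, Calcoco1 read 1.91 and 3.10, 1.62-fold higher, with Atp5g2 at 0.22 next to it, and Smug1 and Cbx5 had -0.26 and 0.16. Beside cluster D, Lnpk and Atp5g3 had 0.09 and 0.03, and Mtx2 and Hnrnpa3 -0.20 and 0.15. The others at least 1.5-fold apart lay further out. On the high-numbered sides, Tril beside cluster A was 1.87-fold lower and Atf2 beside cluster D 1.58-fold higher. On the low-numbered side of cluster C, Gpr84 was at least 2.23-fold lower. The lower values of Hoxa9, Hoxa10 and Hoxa13 thus did not continue into Evx1 and Hibadh, the nearest compared genes beyond the cluster. Of the 5 genes taken on that side, the furthest, Tril, was lower.

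**Figure D3:**
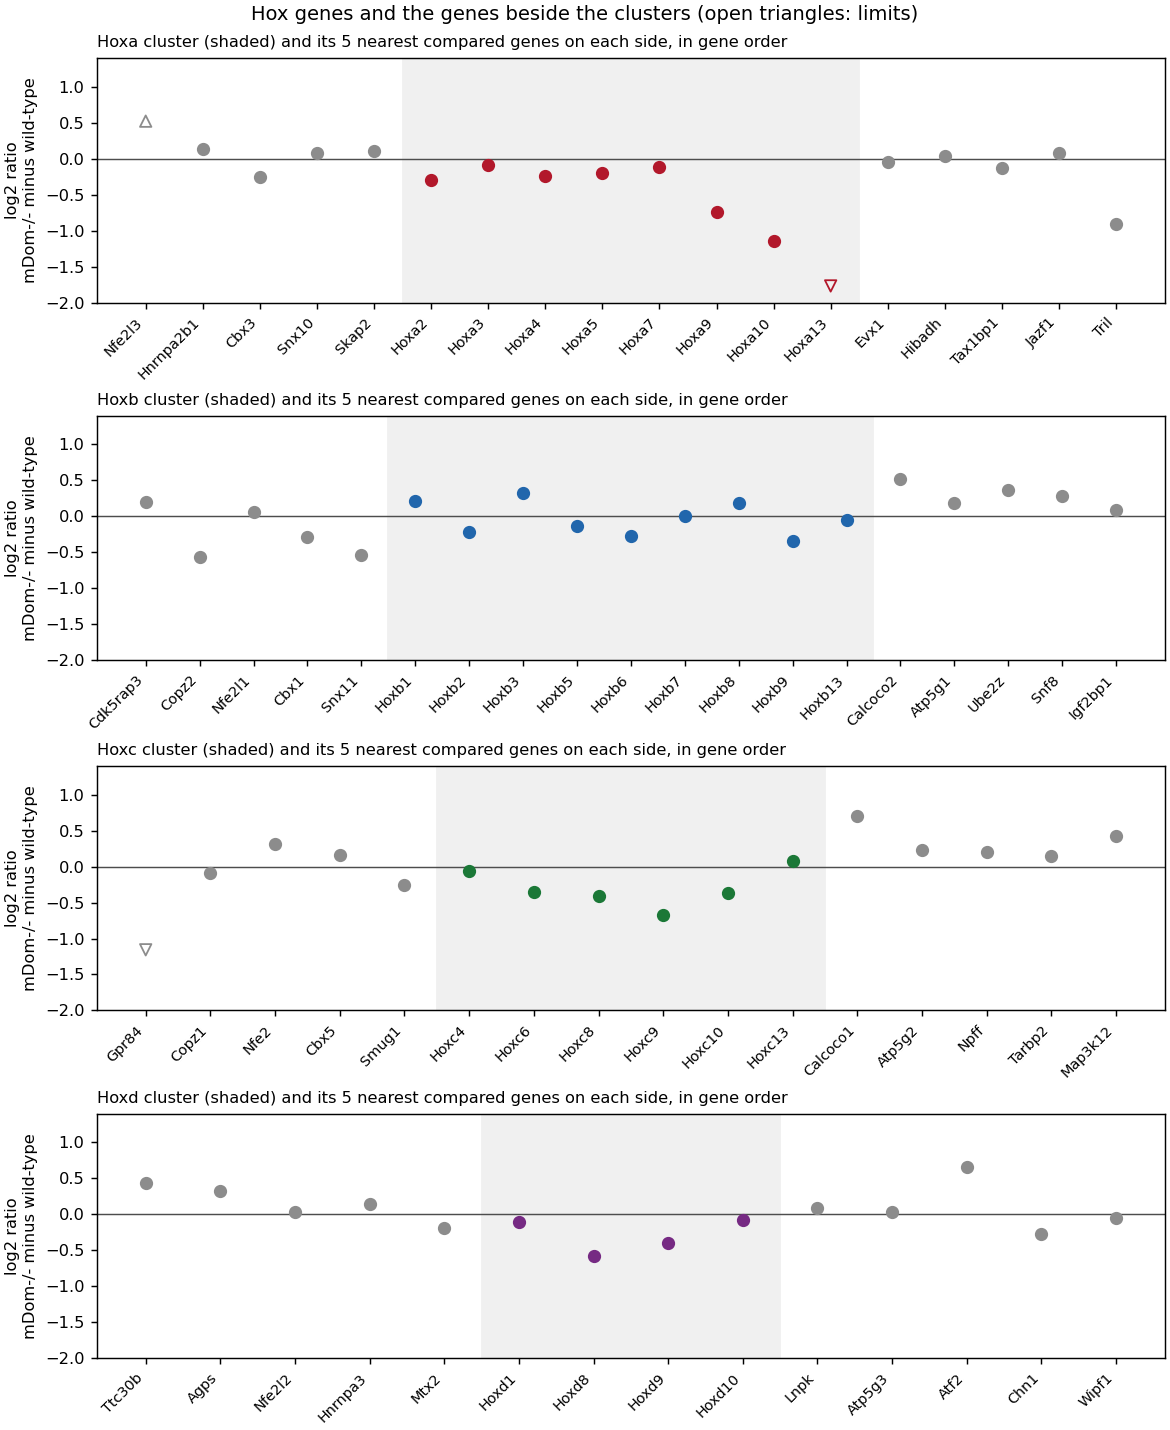
Log2 ratio of mDom-/- over wild-type for the compared genes of each Hox cluster (coloured, shaded) and the 5 nearest compared genes on each side (grey), in gene order from the low-numbered to the high-numbered side and not to genomic scale; open triangles are limits. In cluster A the ratio returns from -1.77 at Hoxa13 to -0.04 at Evx1, the next gene.

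The 4 compared noncoding RNAs of the clusters went both ways. Hoxb5os, annotated as opposite-strand RNA and overlapping the spans of Hoxb5 and Hoxb6, read 69.1 for wild-type embryos and 35.9 for mDom-/- embryos, 1.93-fold lower. Hoxb5 and Hoxb6 themselves had log2 ratios of -0.13 and -0.27. In cluster A, Hotairm1, at the low-numbered end, read 30.7 and 38.7 (0.33) and Hottip, beyond Hoxa13, read 1.18 and 1.28 (0.12), which is within the probe SD of 0. Gm15050, which overlaps Hoxa3, read 14.9 and 20.3 (0.45). Hoxaas3, Hotair and both probes of Hoxd3os1 were under the floor. The strand each probe reads was not stated, and in the RefSeq table the spans of 5 compared Hox genes overlap another listed Hox gene (Hoxa3, Hoxa4, Hoxa5, Hoxb3 and Hoxd10). For all of these, signal of the overlapping transcript cannot be told apart.

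Cofactors that bind DNA together with Hox proteins went both ways by small amounts. Of 9 genes of the PBX and MEIS classes, 7 were compared, and none was 1.5-fold apart. Below 0 were 4 of the 7, against 50.5% of all compared genes. Their median was -0.0025, and 0.12 over the 6 above the floor on both arrays. Meis1 read 50.9 and 60.2 (log2 ratio 0.24), Pbx2 26.3 and 33.2 (0.33) and Meis3 1.56 and 1.88 (0.27). Meis2, Pknox1 and Pbx3 had -0.0025, -0.04 and -0.10, and Pknox2, a limit, -0.29. Among ParaHox and Evx genes, Cdx1, which activates Hox genes in the trunk, read 35.4 for wild-type embryos and 63.3 for mDom-/- embryos, 1.79-fold higher. Its second probe read 3.66 and 5.69 (0.64), also higher. The other Cdx genes, which act on the same targets, stayed near 0: Cdx2 read 19.9 and 18.1 (-0.14) and Cdx4 4.64 and 5.07 (0.13). Gsx1 and Gsx2 had 0.17 and 0.10, and Pdx1 and Evx2 were under the floor.

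Upstream signals went both ways. Of 13 compared retinoic acid genes 8 were below 0, where 50.5% of all compared genes were, and the median was -0.03. Aldh1a2, the main retinoic acid-making enzyme of the embryo, read 23.4 and 32.7 (0.48), while Stra6, a retinol importer, was at least 1.57-fold lower from a dim 0.848 and Rxrb had -0.43. Of 5 compared hindbrain regulators 1 was below 0, and they ran from Otx2 at -0.22 to Gbx2 at 0.35. Of 13 genes of the tail bud and axial elongation 5 were below 0, with a median of 0.14. Lin28a, which marks the early, elongating axis, read 156.4 and 200.8 (0.36). The Notch ligand gene Dll1 read 0.896 and 0.585, 1.53-fold lower, and Wnt5a was at least 1.58-fold lower, both from dim signals. T and Gdf11, genes of the same list, had no probe listed and Fgf4 was under the floor, so the list was read without them. Its median was above 0 and that of the high-numbered Hox genes below 0, and any link was not tested.

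Among chromatin regulators of the clusters, 12 of 19 compared Polycomb genes were below 0 (median -0.08), against 50.5% of all compared genes. Of the 19, 3 were at least 1.5-fold higher, where 4.08% of all compared genes were, and none 1.5-fold lower. Cbx7, whose protein reads the repressive histone mark, read 7.01 and 14.5, 2.07-fold higher, Cbx8 3.10 and 4.75, 1.53-fold higher, and Phc3 0.943 and 1.43, 1.51-fold higher. The other compared CBX genes of the list, Cbx2 and Cbx6, had -0.32 (a limit) and -0.02, and the lowest gene of the list measured on both arrays was Phf1 at -0.46. The probes of Pcgf2, a subunit gene named here after its values were seen, disagreed, with log2 ratios of 0.54 for the brighter (29.7 and 43.1) and -1.72 for the other (13.1 and 3.98). Ezh2, Suz12 and Eed, the core of the complex that writes the mark, had -0.02, -0.15 and -0.24, and these 3 were picked with their values known. Of 14 compared MLL and Trithorax genes 7 were below 0 and none was 1.5-fold apart by its brightest probe, from Kdm6a at -0.47 to Psip1 at 0.24. The probes of Kmt2c, also named after its values were seen, disagreed. The brighter had -0.34, and the other, a limit compared through the mDom-/- array alone, 0.93 (0.266 and 1.03).

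**Figure D4:**
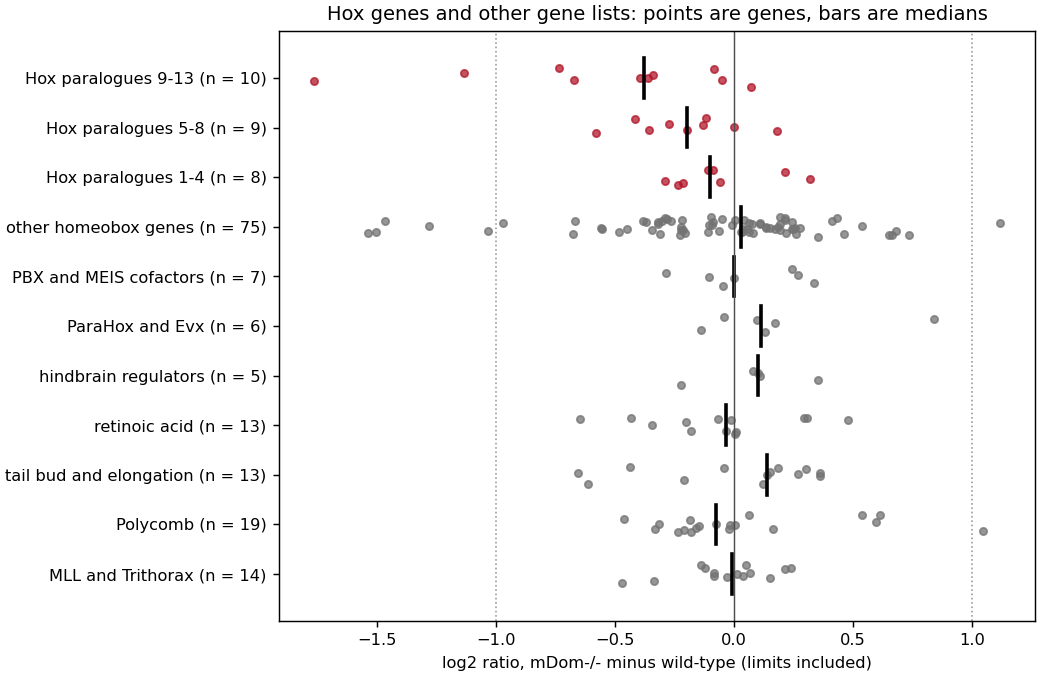
Log2 ratio of mDom-/- over wild-type for Hox genes in 3 paralogue classes (red) and for other gene lists (grey); each point is a compared gene, black bars are medians and dotted lines mark 2-fold. The median is -0.38 for paralogues 9 to 13, and between -0.08 and 0.14 for each of the grey lists.

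Homeobox genes outside the clusters, a list of families added after the data had been seen, were spread on both sides of 0. Of 75 compared genes 36 were below 0, where 50.5% of all compared genes were, and the median was 0.03. At least 1.5-fold lower were 8, against 4.35% of all compared genes, and at least 1.5-fold higher 5, against 4.08%. At least 2-fold lower were 5 of them, against 0.929% of all compared genes and 2 of the 27 Hox genes. Limits are among these counts. The 75 genes ranged from -1.54 to 1.12, against -1.77 (a limit) to 0.32 for the Hox genes. The ends were En2 (2.90-fold lower) and Nanog (2.17-fold higher), named after their values were seen. Of these genes 48.0% were below 0, against 81.5% of the compared Hox genes, but some tissue marker lists had shares near that of the Hox genes.

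Markers of the tissues that express Hox genes were read beside these values. A sum adds levels of different probes, so it follows the brightest members of a list and is given only to set both arrays side by side. The posterior neural tube list had a median of -0.38 over 7 compared genes, like that of paralogues 9 to 13. Below 0 were 5 of the 7, against 50.5% of all compared genes. At least 2-fold lower were 3 of them, where 0.929% of all compared genes were (Dbx1 2.84-fold, Hes5 2.84-fold and, as a limit, Neurog2 2.75-fold). Neurog2 was compared through the wild-type array alone and could only come out lower. Of all genes above the floor on both arrays 0.595% were at least 2-fold lower. Over the 6 genes of the list above it on both arrays the median was -0.30. The summed level of the list was 78.5 for wild-type embryos and 70.7 in the mDom-/- pool. Somite genes had a median of -0.10 over 8 (6 below 0), with Meox2 1.96-fold and Uncx 1.60-fold lower and equal summed levels of 109.4. Lateral plate genes had a median of -0.14 over 5 (sums 64.4 and 66.3), intermediate mesoderm genes -0.11 over 3 (5.91 and 4.96) and general neural genes -0.12 over 5 (56.6 and 49.8). Below 0 were 3 of the 5 lateral plate genes, 3 of the 3 intermediate mesoderm genes and 4 of the 5 neural genes. Genes of the allantois, where Hoxa10 and Hoxa13 are also active, had a median of -0.0036 over 3 (19.6 and 18.6), with the defining Tbx4 under the floor on both arrays. The hindgut and gut list stood at 0.30 over 6 (203.5 and 346.1), and without Spink1, which read 144.5 and 289.3, its sums were 59.0 and 56.8. Visceral endoderm and yolk sac genes, present in both pools of embryo proper, had -0.13 over 9 (677.1 and 868.1), trophoblast and decidua genes -0.04 over 4 (63.3 and 53.5), and heart genes -0.01 over 6 (579.2 and 550.0). Of the yolk sac genes Apoc2, Apoa4 and Ttr were 1.89-fold, 1.73-fold and 1.51-fold higher and Lrp2 and Cubn 1.67-fold and 1.53-fold lower, and of the heart genes Myh7 was 2.72-fold lower. The part of these shifts in the Hox values was not tested. Sox2, Pax7, Hand2, Shh and Myh6, defining genes of tissues in such embryos, were under the floor on both arrays, so a gene under the floor was not detectable here rather than absent.

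**Figure D5:**
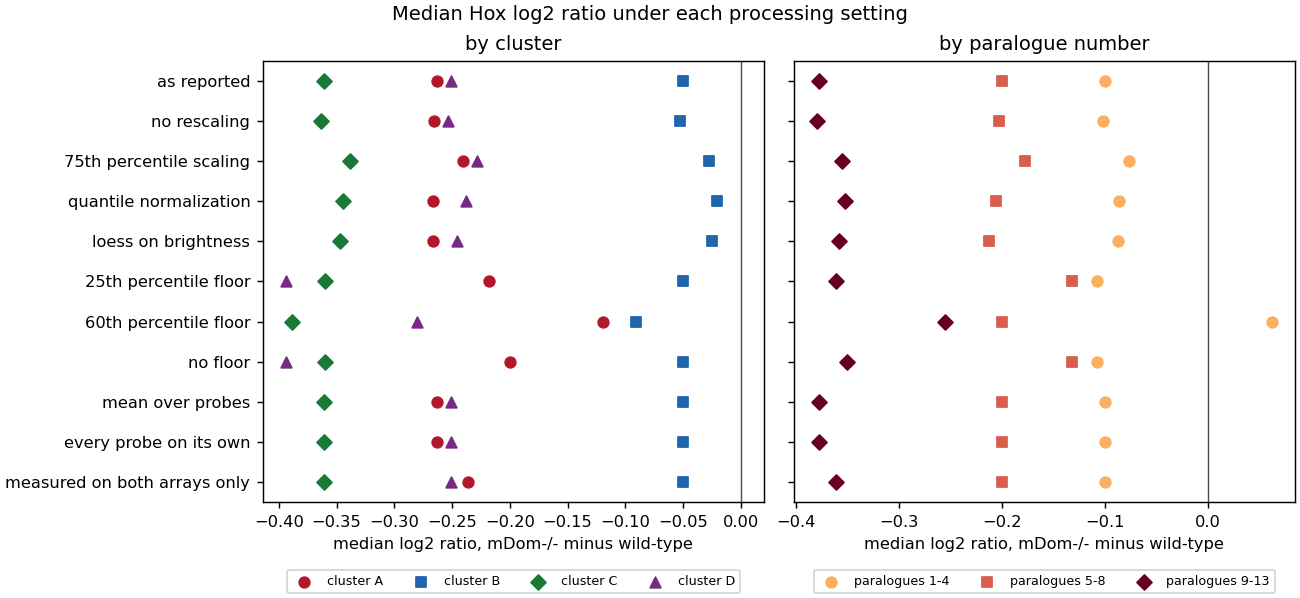
Median Hox log2 ratio of mDom-/- over wild-type by cluster (left) and by paralogue class (right) under the reported processing and 10 other settings. Paralogues 9 to 13 stay between -0.38 and -0.26 and cluster B between -0.09 and -0.02, while paralogues 1 to 4 cross 0 (0.06) with the 60th percentile floor.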

How the data were processed

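RNA of 2 embryo pools, wild-type and mDom-/-, was read on 1 CodeLink array each. Groups came from the sample titles. The deposited values are linear spot intensities, which per the labels came from CodeLink System Software; its version, background correction, scaling and flags were not stated there. Medians of 1.05 on both arrays show that the columns were already on a like scale. The code -9999 was read as no value (105 and 106 probes).

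Each array was divided by its median, floored at the 40th percentile (0.541) and put on the log2 scale. Of the probes, 21615 had 1 gene symbol, 681 several and 13931 none listed. Symbols were updated by Entrez identifier through RefSeq (GRCm38.p6), which also gave gene order and promoters. The build behind the probes was not stated. A gene took its probe with the highest mean log2 level. Computation used Python 3.11.15 with pandas 2.3.3, scipy 1.17.1 and statsmodels 0.14.6, and was tested on simulated data.

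No test was possible with 1 array per group, so size rules of 2-fold and 1.5-fold were used. Alternatives were 4 scalings, 3 floors, 2 probe rules, genes measured on both arrays only and other size rules. Named were every Hox gene with a probe, all compared cofactor and ParaHox genes, pathway list members at least 1.5-fold apart or at an end of a list, tissue markers at least 1.5-fold apart, and the nearest flanking genes. Members and lists were chosen with earlier results of these data known. The number of arrays limits the precision.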

Additional observations from a re-analysis of the deposited data

How the results depend on the processing

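Of the 27 compared Hox genes, 26 kept the sign of their log2 ratio in each of the 10 scaling, floor, probe and filter alternatives that gave them a value. The exception, Hoxb7 at 0.00028, fell to -0.0022 without rescaling. Only the 4 scalings could change a sign. A floor common to both arrays, the probe rules and the filter cannot reverse the ratio of a gene with 1 compared probe. The count of kept signs is thus no check by those settings. The count of Hox genes at least 2-fold lower, 2 as reported (Hoxa10 and Hoxa13), was 0 with the 60th percentile floor, 3 with the 25th (Hoxd3 added), 3 with no floor (Hoxa10, Hoxd3 and Hoxd11), 1 over genes measured on both arrays, 4 with a 1.5-fold rule and 1 with a 3-fold rule. Without Hoxa13 and Hoxa10, and without cluster A, both chosen after seeing the data, it was 0 by construction. The count at least 2-fold higher, 0 as reported, was 1 with no floor (Hoxc5, from signals under the reported floor). Over the 10 alternatives and the reported setting, medians ranged as follows, with a change of sign for paralogues 1 to 4 at the 60th percentile floor: all Hox genes from -0.22 to -0.17, cluster A -0.27 to -0.12, B -0.09 to -0.02, C -0.39 to -0.34, D -0.39 to -0.23, paralogues 1 to 4 from -0.11 to 0.06, 5 to 8 from -0.21 to -0.13 and 9 to 13 from -0.38 to -0.26. The log2 ratio of Hoxa13 was -2.94 with the 25th percentile floor and -0.063 with the 60th, which is the construction of a limit set by the floor. No paired analysis was possible because each group has 1 array. Signal near background limits Hoxa2, Hoxa4, Hoxa9, Hoxa13, Hoxb8, Hoxc4 and Hoxc6, in the dimmest class, most.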

Other observations

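The genes flanking the Hox clusters include copies of the same families, and they are given here as values chosen after they were seen. On the low-numbered side lies 1 gene of the NFE2 family, transcription factors of oxidative stress and blood, at each cluster. At cluster A Nfe2l3 had a log2 ratio of 0.52, a limit. It was compared through the mDom-/- array alone and could only come out higher. Nfe2l1 at B had 0.07 and Nfe2l2 at D 0.03, both within the probe SD of 0. At C Nfe2 had 0.32, from signals near the floor (0.624 and 0.778). Nothing is read from their shared sign. The heterochromatin protein genes on that side differed in sign, with Cbx3 at -0.25 (A), Cbx1 at -0.28 (B) and Cbx5 at 0.16 (C). The RNA-binding protein genes Hnrnpa2b1 (A) and Hnrnpa3 (D) had 0.14 and 0.15. On the high-numbered side the copies of an ATP synthase subunit gene, Atp5g1 (B), Atp5g2 (C) and Atp5g3 (D), had 0.18, 0.22 and 0.03, and the CALCOCO genes 0.52 (Calcoco2, B) and 0.70 (Calcoco1, C). The coatomer genes Copz2 (B) and Copz1 (C) had -0.57 and -0.09.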
